A study of Mus musculus with 12 samples.

Results

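The genotype effect in unperturbed bone marrow was taken from RNA-seq of untreated LSKs, the fraction of bone marrow cells that lack lineage antigens and carry Sca1 and c-Kit and that holds the haematopoietic stem cells (HSCs) and multipotent progenitors. The 3 libraries of untreated Tespa1-/- mice were set against the 3 libraries of untreated Tespa1+/+ mice, 6 of the 12 libraries of the series, and every gene of the deposited table was considered. The mice were males aged 8 to 10 weeks. Tespa1-/- mice carried the germline allele B6.129S-Tespa1 tm1Smoc in all tissues, after more than 6 generations of crossing to C57BL/6, and the Tespa1+/+ controls were their littermates. The other 6 libraries came from mice of either genotype given 5-fluorouracil (5-FU) 9 days earlier, a drug that kills dividing cells, and serve below mainly to ask whether a genotype difference was of another size there. Neither the number of mice behind a library nor their litters are given, so the p-values measure the spread between these libraries, which may in part be technical.

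Tespa1 is an adaptor protein known from thymocytes, where it binds the inositol trisphosphate receptor and takes part in the calcium and ERK signals that follow the T cell receptor. Immediate-early genes are the first genes that a cell transcribes, within minutes and without new protein synthesis, after growth factors, cytokines, calcium signals, stress or handling. They comprise transcription factors (the FOS, JUN, EGR, NR4A and KLF families) and a second set that ends the signal again (dual-specificity phosphatases, Sprouty proteins, SOCS proteins, mRNA-decay proteins and the inhibitors of NF-kB). In HSCs, NR4A and EGR factors are known as regulators of quiescence.

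Depth was similar in both groups, with 22451079 to 28275079 counts per Tespa1+/+ library and 22593985 to 23122811 per Tespa1-/- library, but the composition of the libraries differed. The Tespa1-/- libraries held 9644 to 11767 genes with only 1 to 9 counts, against 4486 to 7269 in Tespa1+/+ and 4742 to 6096 in the 6 libraries after 5-FU, so the untreated Tespa1-/- libraries stood apart from the other 9. Small structural RNAs took a larger share of their counts (3.50 to 3.62% for the class misc_RNA, against 2.29 to 2.48% in Tespa1+/+), and protein-coding genes a smaller share (69.4 to 70.1% against 72.6 to 73.1%). These differences moved with genotype in all 6 libraries, and their part in the results below was not tested. The LSK gate was visible in both groups: Kit was at 387 to 431 CPM in Tespa1+/+ and 355 to 367 CPM in Tespa1-/- libraries, and Ly6a, which encodes Sca1, at 18.4 to 26.2 and 12.5 to 25.5 CPM. Of the lineage antigens, Ly6g had no count in any of the 6 libraries and Cd3e had at most 1, while Itgam reached 31.8 CPM. CPM are counts scaled to the TMM-adjusted library size, computed over the 12 libraries, and 3 counts, taken as the limit of detection, were 0.107 to 0.136 CPM.

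**Figure D1:**
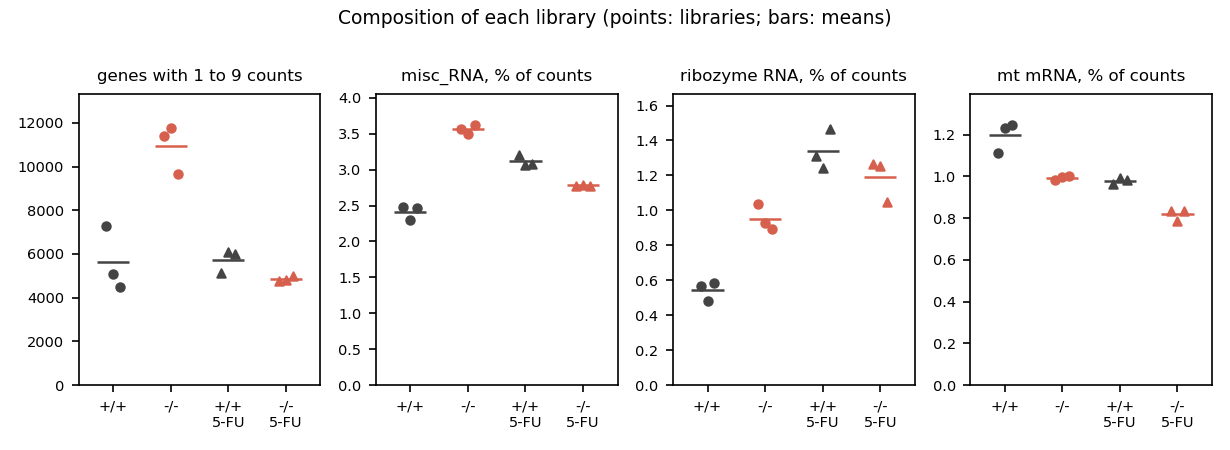
Composition of each library. The panels show the number of genes with 1 to 9 counts and the percent of all counts on RNAs annotated as misc_RNA, on ribozyme RNAs and on the 13 mRNAs of the mitochondrial genome, each from 0 on the y axis; circles are untreated and triangles 5-FU libraries, grey is Tespa1+/+, red is Tespa1-/- and bars are means of 3 libraries. The untreated Tespa1-/- libraries have the most genes with 1 to 9 counts (9644 to 11767) and the largest misc_RNA share (3.50 to 3.62%).

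Tespa1 itself (ENSMUSG00000034833, chromosome 10, 130322870 to 130364111 in GRCm38) was lower but far from absent in untreated Tespa1-/- LSKs. It was at 49.9, 43.1 and 46.6 CPM across Tespa1+/+ libraries against 34.6, 35 and 34.9 CPM across Tespa1-/- libraries, with 1397, 968 and 1028 and 786, 788 and 798 counts. All 3 Tespa1-/- libraries lay below all 3 Tespa1+/+ libraries (p = 0.1 in a two-sided exact permutation test, which cannot give a smaller p with 3 against 3). In the fit across all genes the difference was small, with an adjusted p below 0.05 (log2 fold change -0.42, SE 0.09, adjusted p = 0.032). SE is the standard error of the fitted value, and here and below an adjusted p comes from the quasi-likelihood test of edgeR, adjusted by Benjamini-Hochberg over all genes tested. Tespa1 lost its call without Tespa1+/+ library 1 or 3 or any Tespa1-/- library (adjusted p up to 0.14). After 5-FU the fall was larger, with 47.2, 55.1 and 57.5 CPM in Tespa1+/+ and 20.9, 19.8 and 17.3 CPM in Tespa1-/-, a log2 fold change of -1.47 (SE 0.12) that differed from the untreated one (interaction -1.05, SE 0.15, adjusted p = 0.001). Counts per gene hold no information on the exons from which the remaining reads came, so this gene checks the labels only by its direction.

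Among 17055 genes tested, 262 were lower and 166 higher in untreated Tespa1-/- LSKs by more than 1.5-fold with an adjusted p below 0.05 (1.54% and 0.973% of genes). The 8 genes with the smallest p were Fosl2, Sik1, Kdm6b, Plk2, Nr4a1, Dusp5, Serinc3 and Marcksl1, all lower, and all but the last pair are immediate-early genes. Without the fold threshold 612 genes were lower and 280 higher (3.59% and 1.64%, or 5.23% in all), the shares against which the gene groups below are read. Of the genes called with the fold threshold, 224 of the 262 lower and 109 of the 166 higher genes were protein-coding. 23 genes called higher had no count in any Tespa1+/+ library, and 8 called lower had none in any Tespa1-/- library. The groups did not overlap in 13.2% of genes with Tespa1-/- as the lower and 12.4% with it as the higher group. The counts fell when a Tespa1-/- library was left out: without library 1, 2 or 3 of this group, 159, 155 and 167 genes were called lower and 65, 61 and 51 higher. At the study's thresholds (unadjusted P below 0.05 and a fold above 1.5), 546 genes were lower and 603 higher (3.2% and 3.54%).

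**Figure D2:**
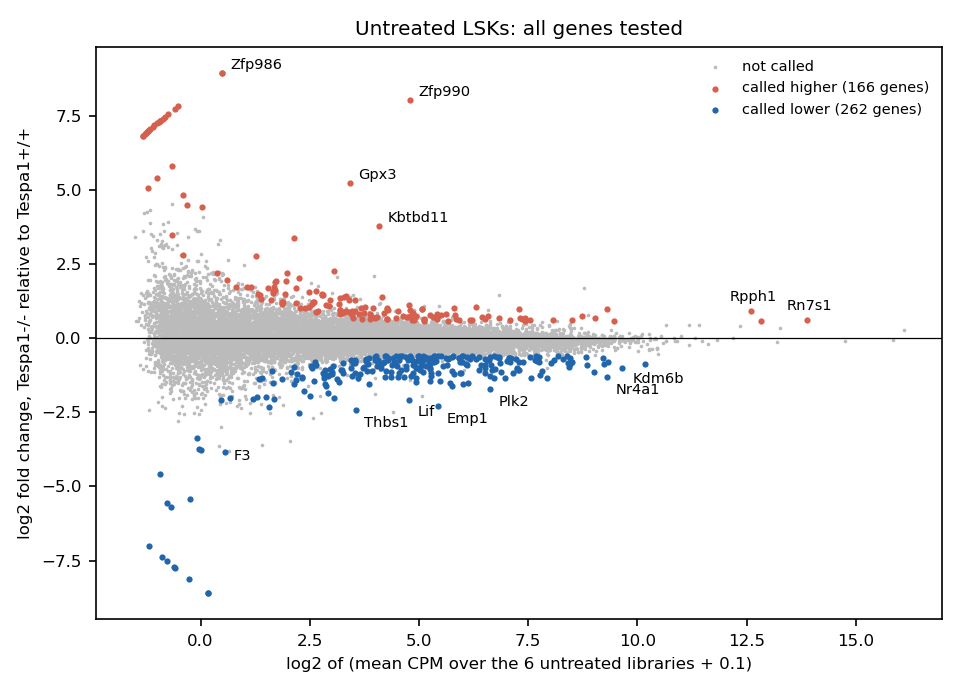
All 17055 genes tested in untreated LSKs. The x axis is the log2 of the mean CPM over the 6 libraries plus 0.1, the y axis the fitted log2 fold change of Tespa1-/- relative to Tespa1+/+; red and blue points are the 166 genes called higher and the 262 called lower. Many of the lower genes have high levels (Kdm6b, Nr4a1), while the fitted values above 5 and below -4 at the left edge belong to genes with few counts or none in 1 group.

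Of the 30 immediate-early transcription factors, all of which passed the filter on low counts, 22 were lower in Tespa1-/- LSKs, against 3.59% of all genes, and 1, Myc, was higher. Their median log2 fold change of -0.79 compares with 0.01 for the whole set of tested genes. For 25 of the 30 the groups did not overlap and Tespa1-/- was lower, against 13.2% of genes. Bulk RNA cannot tell fewer cells of a type from less RNA per cell, and this holds for every result here. Nr4a1, an orphan nuclear receptor of the NR4A family (ENSMUSG00000023034, chromosome 15, 101266846 to 101274792), was at 909.9, 891 and 916 CPM across Tespa1+/+ libraries against 351, 350.4 and 392 CPM across Tespa1-/- libraries (log2 fold change -1.31, SE 0.05, adjusted p = 6.7e-06). Both sets of libraries were tight and a wide gap lay between them. Its relatives fell as well: Nr4a2 was at 70.9, 80.3 and 81.1 CPM across Tespa1+/+ libraries against 33.2, 36 and 30.6 CPM across Tespa1-/- libraries (log2 fold change -1.22, SE 0.09, adjusted p = 0.00026). Nr4a3 was at 106, 111 and 69 CPM across Tespa1+/+ libraries against 39.4, 27.2 and 30.6 CPM across Tespa1-/- libraries (log2 fold change -1.56, SE 0.20, adjusted p = 0.0034), with 1 Tespa1+/+ library below the other two but still above all Tespa1-/- libraries.

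The FOS and JUN proteins pair into the AP-1 factors, and their genes fell by very different amounts. Fosl2 (ENSMUSG00000029135, chromosome 5, 32135801 to 32157842), a FOS-related gene and the one with the smallest p of all genes, was at 349.9, 339 and 352 CPM across Tespa1+/+ libraries against 143, 133 and 137 CPM across Tespa1-/- libraries (log2 fold change -1.34, SE 0.05, adjusted p = 6.7e-06). Junb fell strongly (-0.87 ± 0.05, log2 fold change ± SE), and Fos, Fosb, Jun and Jund fell less (Fos -0.35 ± 0.03, Fosb -0.43 ± 0.06, Jun -0.24 ± 0.02 and Jund -0.27 ± 0.06). Atf3 (-1.27 ± 0.08), Maff (-1.33 ± 0.28) and Cebpb (-1.03 ± 0.05), further leucine-zipper factors, fell too. Cebpb was at 201, 212 and 197 CPM across Tespa1+/+ libraries against 101, 98 and 99.2 CPM across Tespa1-/- libraries. Bhlhe40, a helix-loop-helix repressor, was at 111, 105 and 95.6 CPM across Tespa1+/+ libraries against 34.6, 35.9 and 37.6 CPM across Tespa1-/- libraries (log2 fold change -1.53, SE 0.08, adjusted p = 3.3e-05). Among zinc-finger factors, Egr1 was at 699, 884 and 881 CPM across Tespa1+/+ libraries against 465, 469 and 483 CPM across Tespa1-/- libraries (log2 fold change -0.80, SE 0.08, adjusted p = 0.0013), and the Kruppel-like factor genes fell too (Klf2 -0.80 ± 0.06, Klf4 -0.82 ± 0.11 and Klf6 -0.62 ± 0.04). The remaining calls were Csrnp1 -1.33 ± 0.11, Hes1 -1.32 ± 0.12, Irf1 -0.53 ± 0.08, Ier2 -0.40 ± 0.04 and Ier5 -0.53 ± 0.09. The other 7 of the list did not pass: Egr3 -1.05 ± 0.27, Id1 -0.66 ± 0.20, Id3 -0.62 ± 0.21, Id2 -0.78 ± 0.35, Cebpd 0.14 ± 0.12, Egr2 -0.40 ± 0.46 and Nfil3 -0.14 ± 0.17. Myc, the only member that rose, was at 131, 133 and 164 CPM across Tespa1+/+ libraries against 185, 209 and 185 CPM across Tespa1-/- libraries (log2 fold change 0.44, SE 0.10, adjusted p = 0.036). Myc lost its call without Tespa1+/+ library 1 or 2 or any Tespa1-/- library (adjusted p up to 0.16). Maff lost its call without Tespa1+/+ library 2 or 3 or Tespa1-/- library 1 or 3 (adjusted p up to 0.13). Jund lost its call without Tespa1+/+ library 2 or any Tespa1-/- library (adjusted p up to 0.17). Ier5 lost its call without any Tespa1-/- library (adjusted p up to 0.082). Irf1 lost its call without Tespa1-/- library 2 (adjusted p up to 0.059).

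The second set of immediate-early genes, whose products damp or carry out the response, was lower as well. Of its 45 members 33 fell and none rose (median log2 fold change -0.69). Among the dual-specificity phosphatases, which switch off MAP kinases, Dusp5 (ENSMUSG00000034765, chromosome 19, 53529109 to 53542431) was at 316, 309 and 301 CPM across Tespa1+/+ libraries against 127, 132 and 129 CPM across Tespa1-/- libraries (log2 fold change -1.26, SE 0.05, adjusted p = 6.7e-06). Dusp1, Dusp2, Dusp4 and Dusp6 fell as well (Dusp1 -0.35 ± 0.05, Dusp2 -0.55 ± 0.05, Dusp4 -0.99 ± 0.20 and Dusp6 -0.66 ± 0.08), while Dusp8 (-0.82 ± 0.37) and Dusp10 (-0.74 ± 0.20) did not pass. Spry1, Spry2, Spred1 and Spred2, inhibitors of the RAS to ERK pathway, fell (Spry1 -1.05 ± 0.10, Spry2 -0.93 ± 0.13, Spred1 -0.32 ± 0.06 and Spred2 -0.54 ± 0.10), and Spry4 did not pass (-1.53 ± 0.39). Among protein kinases, Sik1 (ENSMUSG00000024042, chromosome 17, 31844248 to 31855792), a salt-inducible kinase that restrains CREB coactivators, was at 720.1, 724 and 677 CPM across Tespa1+/+ libraries against 321, 319 and 331 CPM across Tespa1-/- libraries (log2 fold change -1.13, SE 0.04, adjusted p = 6.7e-06). Plk2 (ENSMUSG00000021701, chromosome 13, 110395046 to 110400844), a Polo-like kinase, was at 148, 161 and 149 CPM across Tespa1+/+ libraries against 44.6, 46.3 and 47.6 CPM across Tespa1-/- libraries (log2 fold change -1.73, SE 0.07, adjusted p = 6.7e-06). The groups of both genes were far apart relative to the spread within them. Pim1 (-0.57 ± 0.04), Plk3 (-0.66 ± 0.11) and the pseudokinase gene Trib1 (-1.19 ± 0.06) fell too. Kdm6b (ENSMUSG00000018476, chromosome 11, 69398508 to 69413675), which encodes the histone H3 lysine 27 demethylase JMJD3, was at 1065, 1063 and 1107 CPM across Tespa1+/+ libraries against 519, 536 and 556 CPM across Tespa1-/- libraries (log2 fold change -1.005, SE 0.04, adjusted p = 6.7e-06).

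Genes for proteins that bind AU-rich elements and shorten the life of immediate-early mRNAs fell: Zfp36 was at 1309, 1582 and 1567 CPM across Tespa1+/+ libraries against 807, 807 and 810.5 CPM across Tespa1-/- libraries (log2 fold change -0.88, SE 0.07, adjusted p = 0.00023), and Zfp36l1 and Zfp36l2 had log2 fold changes of -0.69 ± 0.11 and -0.41 ± 0.03. Socs3, an inhibitor of cytokine receptors, fell (-0.99 ± 0.06), and Socs1, Socs2 and Cish did not pass (Socs1 -0.61 ± 0.22, Socs2 -0.29 ± 0.31 and Cish -0.26 ± 0.22). Mcl1, an anti-apoptotic BCL2 relative, fell (-0.68 ± 0.04), as did Rgs1 and Rgs2, regulators of G-protein signals (-0.78 ± 0.06 and -0.85 ± 0.06). So did the GTPase gene Gem (-1.61 ± 0.11), Ptgs2, which encodes a prostaglandin synthase (-1.18 ± 0.07), the clock gene Per1 (-0.74 ± 0.06) and the antiproliferative genes Btg1 and Btg2 (-0.63 ± 0.06 and -0.59 ± 0.08). Of the GADD45 stress genes, Gadd45b fell (-1.10 ± 0.08) while Gadd45a (-0.01 ± 0.16) and Gadd45g (-0.17 ± 0.21) did not pass. In both sets together, 55 of 75 genes were lower, and 46 genes kept an adjusted p below 0.05 in every alternative fit. Zfp36l1 lost its call without Tespa1-/- library 2 (adjusted p up to 0.061). Plk3 lost its call without any Tespa1-/- library (adjusted p up to 0.07). Spred2 lost its call without Tespa1+/+ library 2 or any Tespa1-/- library (adjusted p up to 0.091). Dusp4 lost its call without Tespa1+/+ library 1 or any Tespa1-/- library (adjusted p up to 0.11). Spred1 lost its call without any 1 of the 6 libraries (adjusted p up to 0.13). Exons of Cebpb, Bhlhe40, Junb, Csrnp1, Jun, Irf1, Jund, Cebpd, Kdm6b, Dusp5, Pim1, Zfp36l2, Zfp36, Spry1, Dusp1, Zfp36l1, Plk3, Ppp1r15a, Dusp8, Cish and Gadd45a overlap annotated genes on the opposite strand, and whether the counting used the strand that the kit keeps is not given in the sources used here, so these counts are uncertain.

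The promoters of these genes are shown because most of these genes moved in one direction, and the letters of a promoter were not used to choose them. RefSeq windows of GRCm38.p6, from 250 bases before to 50 bases after each start site, were held for 56 of the 75 immediate-early genes. The count of sites below was planned for the transcription factors alone, and the feedback and effector genes were added to it. Sequences are printed for the first kind of site only. The full cAMP-response element (CRE, TGACGTCA, a palindrome and so the same on both strands), the site of CREB and ATF factors, was in the windows of 7 of 34 feedback and effector genes (20.6%) and 1 of 22 transcription factors (4.55%), against 3.49% of the tested genes with a window and 2.03% of all genes with one. These windows are, 5′ to 3′ on the strand of the gene, with the CRE in capitals and 20 bases on each side (coordinates are those of the letters printed, and the distance is from the first base of the CRE to the start site):
Btg2, chr1:134079294-134079341, minus strand, 166 bases from CRE to start: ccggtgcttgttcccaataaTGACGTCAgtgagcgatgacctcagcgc
Errfi1, chr4:150854999-150855046, plus strand, 51 bases from CRE to start: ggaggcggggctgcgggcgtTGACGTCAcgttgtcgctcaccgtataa
Nfkbid, chr7:30422335-30422382, plus strand, 51 bases from CRE to start: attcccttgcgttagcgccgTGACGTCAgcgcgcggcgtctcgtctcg
Ppp1r15a, chr7:45526253-45526300, minus strand, 12 bases from CRE to start: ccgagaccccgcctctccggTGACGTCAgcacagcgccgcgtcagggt
Dusp8, chr7:142095364-142095411, minus strand, 107 bases from CRE to start: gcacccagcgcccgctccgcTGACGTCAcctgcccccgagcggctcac
Dusp8, chr7:142095320-142095367, minus strand, 63 bases from CRE to start: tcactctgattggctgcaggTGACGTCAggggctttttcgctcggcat
Plk2, chr13:110394962-110395009, plus strand, 62 bases from CRE to start: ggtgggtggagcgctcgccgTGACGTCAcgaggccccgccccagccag
Maff, chr15:79347471-79347518, plus strand, 29 bases from CRE to start: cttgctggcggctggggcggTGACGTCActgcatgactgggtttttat
Dusp1, chr17:26508588-26508635, minus strand, 143 bases from CRE to start: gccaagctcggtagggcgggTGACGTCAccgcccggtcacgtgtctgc
Among the 8 genes shown, 5 fell (Plk2, Btg2, Nfkbid, Maff and Dusp1), beside 55 of all 75 immediate-early genes (73.3%). The genes with a CRE were thus called lower no more often than the lists that hold them. Ppp1r15a (-0.39 ± 0.10), Dusp8 (-0.82 ± 0.37) and Errfi1 (0.24 ± 0.43) did not pass. The AP-1 site (TGACTCA, both strands) was in 1 and 1 windows of the first and second set (4.55% and 2.94%, against 4.41% of tested genes), the CArG box of serum response factor in 1 and 2 (4.55% and 5.88%, against 1.54%) and the NF-kB site in 6 and 4 (27.3% and 11.8%, against 6.08%). Over all 262 genes called lower with a fold above 1.5, the CRE was in 6.32%, the AP-1 site in 8.05%, the CArG box in 1.15% and the NF-kB site in 12.6% of the 174 windows held. These are matches of letters in a short window.

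**Figure D3:**
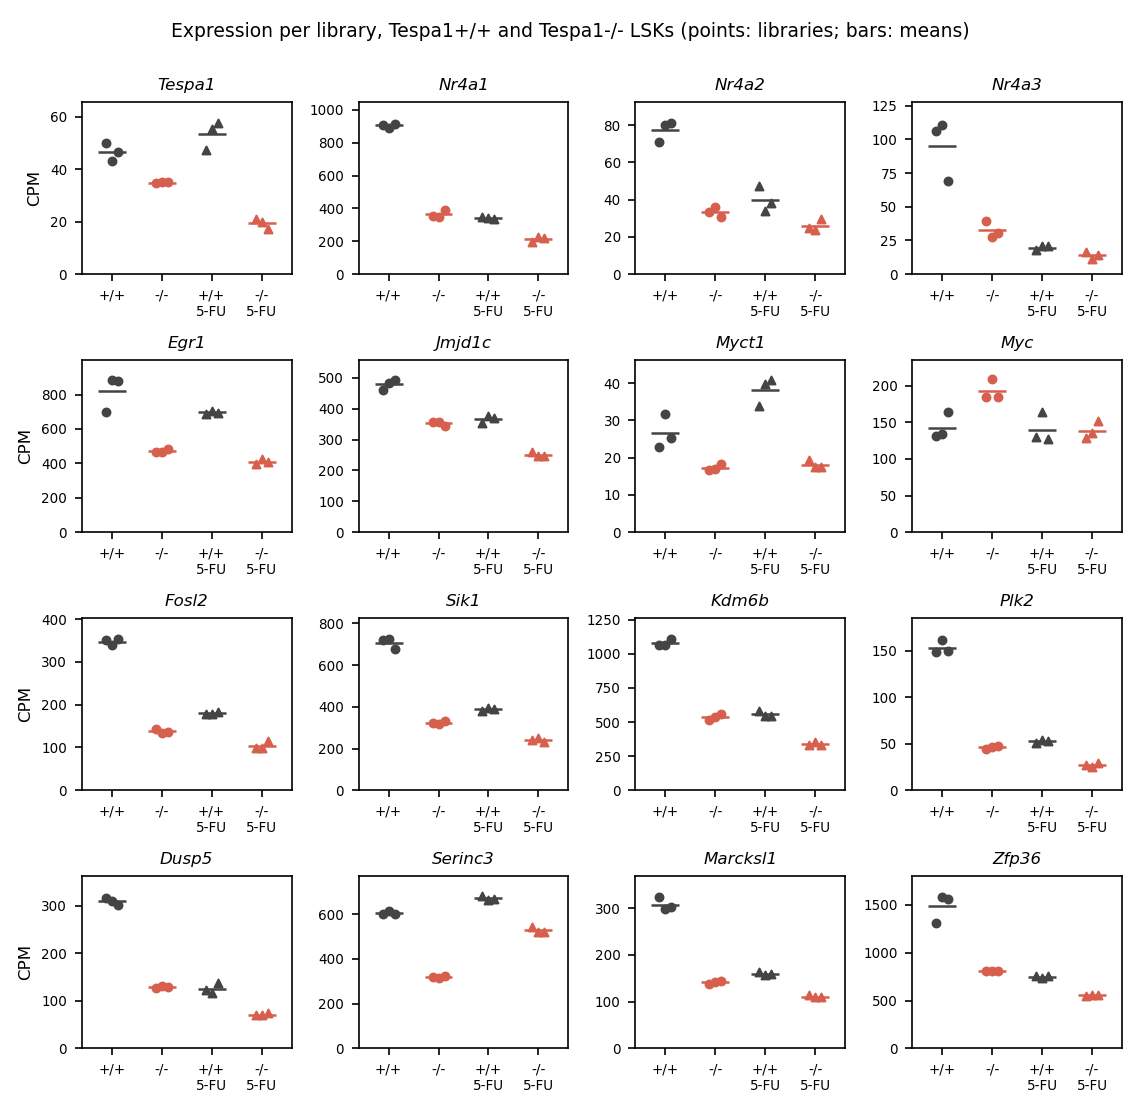
CPM of 16 genes in each of the 12 libraries, y axes from 0. Circles are untreated and triangles 5-FU libraries, grey is Tespa1+/+, red is Tespa1-/- and bars are means of 3 libraries. In untreated LSKs the Tespa1-/- libraries lie below the Tespa1+/+ libraries in 15 of the 16 genes, and Myc is the exception.

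The study names Myct1, Jmjd1c, Nr4a1, Nr4a2, Nr4a3 and Egr1 as c-Myc target genes linked to HSC maintenance, chosen in these mice under stress, so the list is not independent evidence of its direction. All 6 were lower in untreated Tespa1-/- LSKs, and the groups overlapped in none of them (median log2 fold change -1.01). Of these, 4 are immediate-early genes counted above. Jmjd1c, a JmjC-domain protein gene, was at 462, 482 and 494 CPM across Tespa1+/+ libraries against 356, 356 and 346 CPM across Tespa1-/- libraries (log2 fold change -0.44, SE 0.04, adjusted p = 0.00076). Myct1 was at 22.9, 31.7 and 25.2 CPM across Tespa1+/+ libraries against 16.8, 16.8 and 18.4 CPM across Tespa1-/- libraries (log2 fold change -0.62, SE 0.15, adjusted p = 0.049), close to the threshold. Myct1 lost its call without Tespa1+/+ library 2 or 3 or any Tespa1-/- library (adjusted p up to 0.18). Of the 12 genes of the MYC network tested, Myc itself was higher, and Mnt and Mxd1, which encode repressors that compete with MYC for MAX, were lower. Mnt was at 104, 109.8 and 105 CPM across Tespa1+/+ libraries against 70.2, 73.3 and 71.1 CPM across Tespa1-/- libraries (log2 fold change -0.57, SE 0.06, adjusted p = 0.0013), and Mxd1 had a log2 fold change of -0.58 ± 0.09 (adjusted p = 0.01). Of the 10 COP9 signalosome genes, which encode the complex that contains CSN6, Cops2 fell (log2 fold change -0.32, SE 0.07, adjusted p = 0.031) and the median was 0.01. The 57 genes of a list of ribosome biogenesis genes and known MYC targets had a median of -0.01 with 4 lower (Odc1 -0.82 ± 0.10, Ncl -0.11 ± 0.02, Gnl2 -0.35 ± 0.07 and Ddx21 -0.18 ± 0.04) and none higher. Odc1, an enzyme gene of polyamine synthesis and no ribosome factor, had the largest of these falls, and the count was 2 without Tespa1+/+ library 1, 2 without Tespa1+/+ library 2, 2 without Tespa1+/+ library 3, 1 without Tespa1-/- library 1, 1 without Tespa1-/- library 2 and 1 without Tespa1-/- library 3. Mxd1 lost its call without Tespa1-/- library 2 or 3 (adjusted p up to 0.061). Cops2 lost its call without Tespa1+/+ library 2 or 3 or any Tespa1-/- library (adjusted p up to 0.15). Ncl lost its call without Tespa1+/+ library 2 or any Tespa1-/- library (adjusted p up to 0.12). Gnl2 lost its call without Tespa1+/+ library 1 or 3 or any Tespa1-/- library (adjusted p up to 0.13). Ddx21 lost its call without any 1 of the 6 libraries (adjusted p up to 0.16).

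Of 15 genes for NF-kB subunits and their inhibitors, 8 were lower and none higher (median log2 fold change -0.52). Tnfaip3, which encodes the NF-kB inhibitor A20, was at 463, 446 and 475 CPM across Tespa1+/+ libraries against 243, 234 and 224 CPM across Tespa1-/- libraries (log2 fold change -0.98, SE 0.05, adjusted p = 3.3e-05). Nfkbia, Nfkbie and Nfkbiz, other inhibitors or modulators, had log2 fold changes of -0.67 ± 0.05, -0.69 ± 0.06 and -0.87 ± 0.08. Of the subunits, Rel (-0.81 ± 0.06), Rela (-0.52 ± 0.06) and Nfkb2 (-0.72 ± 0.08) fell, as did Birc3, an inhibitor of apoptosis gene (-0.39 ± 0.09), whereas Nfkb1 (-0.13 ± 0.06) and Relb (-0.26 ± 0.21) did not pass. Tnfaip3, Nfkbia and Nfkbiz are also immediate-early members above. Icam1, an adhesion gene that NF-kB is known to drive, was at 91, 87 and 90.2 CPM across Tespa1+/+ libraries against 48.8, 48.7 and 44.1 CPM across Tespa1-/- libraries (log2 fold change -0.92, SE 0.07, adjusted p = 0.00027). The 23 tested genes of Tespa1 and its calcium pathway held 3 calls, all lower (13%, against 3.59% of all genes): besides Tespa1, Nfatc2 (log2 fold change -0.66, SE 0.12, adjusted p = 0.021) and Ppp3ca, a catalytic subunit of calcineurin (log2 fold change -0.26, SE 0.06, adjusted p = 0.043), were lower, and the median was -0.10. The number of lower genes in this list was 1 without Tespa1+/+ library 3, 0 without Tespa1-/- library 1, 0 without Tespa1-/- library 2 and 1 without Tespa1-/- library 3. The inositol trisphosphate receptors Itpr1, Itpr2 and Itpr3 had log2 fold changes of 0.00 ± 0.05, -0.12 ± 0.07 and 0.06 ± 0.06, none of which passed. Birc3 lost its call without any 1 of the 6 libraries (adjusted p up to 0.17). Nfatc2 lost its call without any Tespa1-/- library (adjusted p up to 0.11). Ppp3ca lost its call without Tespa1+/+ library 2 or 3 or any Tespa1-/- library (adjusted p up to 0.18).

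The 12 largest falls were F3, Rab6b, Thbs1, Il10, Emp1, Lif, Itga3, Ehd3, Tnfsf11, Areg, Fam71a and Il1r2, with log2 fold changes from -3.84 to -1.86. Among them are the cytokine and growth-factor genes Lif, Il10, Tnfsf11 (RANKL) and Areg (amphiregulin), and Il1r2, the decoy receptor of interleukin-1. Lif was at 48.7, 52.7 and 30.5 CPM across Tespa1+/+ libraries against 14.8, 3.51 and 13 CPM across Tespa1-/- libraries (log2 fold change -2.07, SE 0.45, adjusted p = 0.035). Il10, an anti-inflammatory cytokine gene, was at 5.32, 5.25 and 3.76 CPM across Tespa1+/+ libraries against 1.23, 1.02 and 0.612 CPM across Tespa1-/- libraries (log2 fold change -2.32, SE 0.35, adjusted p = 0.0074). Il1r2 was at 11, 15.7 and 8.11 CPM across Tespa1+/+ libraries against 3.47, 2.75 and 3.37 CPM across Tespa1-/- libraries (log2 fold change -1.86, SE 0.27, adjusted p = 0.0066). Thbs1 (ENSMUSG00000040152, chromosome 2, 118111876 to 118127133), which encodes the matrix protein thrombospondin-1, was at 18.6, 17.3 and 23.3 CPM across Tespa1+/+ libraries against 4.57, 4.40 and 2.01 CPM across Tespa1-/- libraries (log2 fold change -2.43, SE 0.30, adjusted p = 0.003). Emp1, a membrane protein gene, was at 92.5, 41.9 and 81.2 CPM across Tespa1+/+ libraries against 18.8, 11.6 and 13.6 CPM across Tespa1-/- libraries (log2 fold change -2.29, SE 0.30, adjusted p = 0.0038), and its Tespa1+/+ libraries were uneven while staying above all Tespa1-/- libraries. F3 (tissue factor) was at 2.89, 3.34 and 1.54 CPM across Tespa1+/+ libraries against 0.264, 0 and 0.262 CPM across Tespa1-/- libraries, so its fold change rests on few counts (log2 fold change -3.84, SE 0.80, adjusted p = 0.031). Rab6b, Ehd3 and Itga3 are genes of vesicle transport and adhesion (Rab6b -2.52 ± 0.29, Ehd3 -2.01 ± 0.34 and Itga3 -2.05 ± 0.44), Areg and Tnfsf11 had log2 fold changes of -1.97 ± 0.36 and -1.99 ± 0.45, and Fam71a was at 9.14, 8.81 and 8.75 CPM across Tespa1+/+ libraries against 1.71, 2.44 and 2.76 CPM across Tespa1-/- libraries (log2 fold change -1.95, SE 0.23, adjusted p = 0.0025). F3, Lif and Itga3 lost their calls without Tespa1+/+ library 1 or 2 or Tespa1-/- library 1 or 3 (adjusted p up to 0.13). Ehd3 lost its call without Tespa1-/- library 1 or 2 (adjusted p up to 0.056). Tnfsf11 and Areg lost their calls without Tespa1+/+ library 1 or 2 or any Tespa1-/- library (adjusted p up to 0.16). The 8 smallest p values also named Serinc3, a multipass membrane protein gene, at 599, 616 and 603 CPM across Tespa1+/+ libraries against 320.5, 315 and 323 CPM across Tespa1-/- libraries (log2 fold change -0.92, SE 0.04, adjusted p = 8.7e-06). Marcksl1, a membrane and actin binding protein gene of the MARCKS family, was at 324, 297 and 302 CPM across Tespa1+/+ libraries against 138, 143 and 145 CPM across Tespa1-/- libraries (log2 fold change -1.12, SE 0.05, adjusted p = 3.1e-05).

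Of the 12 genes with the largest fitted rises, 3 encode zinc-finger proteins, and for Zfp986 and Zfp708, which had no Tespa1+/+ count, the place in this ranking rests on a fitted value that is no measure of size. Zfp990 (ENSMUSG00000078503, chromosome 4, 145510759 to 145539188) was at 0.179, 0.445 and 0 CPM across Tespa1+/+ libraries against 55.4, 56.4 and 53.8 CPM across Tespa1-/- libraries (log2 fold change 8.02, SE 0.40, adjusted p = 3.3e-05), near absent in one group and well expressed in the other. Its Tespa1+/+ counts were 5, 10 and 0, so the size of this value is uncertain (7.50 to 9.04 with 1 library left out). Zfp986 (ENSMUSG00000078500, chromosome 4, 145868794 to 145899975) had no count in any Tespa1+/+ library and 68, 52 and 58 in Tespa1-/-, which is at least 20.8-fold higher, reckoned from a limit of 3 counts per library. Zfp708 (ENSMUSG00000058883, chromosome 13, 67069399 to 67097976), also without a Tespa1+/+ count, had 84, 35 and 58 in Tespa1-/-, at least 20.7-fold higher. These genes belong to a family of close copies, and exons of Zfp708 overlap Gm28557 and Rslcan18 on the same strand, so reads could be split between members in counting. After 5-FU, Zfp990 was at 13.7, 24 and 14.3 CPM in Tespa1+/+ and 13.4, 19.5 and 9.44 CPM in Tespa1-/- libraries, so that for this gene the untreated Tespa1+/+ libraries were the low ones among the 4 groups. Zfp708 was instead near absent after 5-FU, at 0.273, 0 and 0 CPM in Tespa1+/+ and 0, 0.0388 and 0 CPM in Tespa1-/- libraries. Zfp986 was there at 0.351, 0.811 and 0.703 CPM in Tespa1+/+ and 0, 0.814 and 2.30 CPM in Tespa1-/- libraries. Kbtbd11, a BTB-domain protein gene, was at 1.04, 1.96 and 3.99 CPM across Tespa1+/+ libraries against 37.5, 34.1 and 23.1 CPM across Tespa1-/- libraries (log2 fold change 3.78, SE 0.43, adjusted p = 0.0019). Gpx3, a secreted glutathione peroxidase gene, was at 1.07, 0.311 and 0.181 CPM across Tespa1+/+ libraries against 1.19, 46.4 and 14.2 CPM across Tespa1-/- libraries (log2 fold change 5.22, SE 1.22, adjusted p = 0.047), with 1 Tespa1-/- library near the Tespa1+/+ level. Ermap and Kel, which encode red-cell surface antigens, rose as well. Ermap was at 1.79, 5.74 and 0.952 CPM across Tespa1+/+ libraries against 13.7, 13.1 and 13.6 CPM across Tespa1-/- libraries (log2 fold change 2.26, SE 0.53, adjusted p = 0.049). Kel was at 1.11, 2.31 and 0.589 CPM across Tespa1+/+ libraries against 5.01, 4.53 and 5.77 CPM across Tespa1-/- libraries (log2 fold change 1.93, SE 0.45, adjusted p = 0.047). Il1rl1, the receptor of interleukin-33, was at 2.64, 1.16 and 1.68 CPM across Tespa1+/+ libraries against 7.96, 7.24 and 7.26 CPM across Tespa1-/- libraries (log2 fold change 2.02, SE 0.31, adjusted p = 0.0084). Ppcs, an enzyme gene of coenzyme A synthesis, Car12, a carbonic anhydrase gene, Slc45a3 and Ttn completed the list at 1.93 ± 0.26, 1.68 ± 0.27, 1.68 ± 0.33 and 1.62 ± 0.31. Gpx3 lost its call without any Tespa1+/+ library or Tespa1-/- library 2 or 3 (adjusted p up to 0.15). Ermap, Kel and Slc45a3 lost their calls without Tespa1+/+ library 1 or 3 or any Tespa1-/- library (adjusted p up to 0.17). Car12 lost its call without Tespa1-/- library 1 or 2 (adjusted p up to 0.058). Ttn lost its call without Tespa1+/+ library 2 or any Tespa1-/- library (adjusted p up to 0.11). Under the same conditions 58 further rises and 42 further falls had provisional symbols or were pseudogenes or immunoglobulin or T cell receptor segments, and were left out of this ranking.

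Several stem cell and lymphoid genes were lower. Of 42 HSC regulators tested, 5 fell (2 without Tespa1-/- library 1 and 2 without Tespa1-/- library 2) and 1 rose. Msi2, an RNA-binding protein gene of stem cells, was at 362, 401 and 407 CPM across Tespa1+/+ libraries against 277, 287 and 288 CPM across Tespa1-/- libraries (log2 fold change -0.45, SE 0.05, adjusted p = 0.0027). Angpt1, Erg, Mecom and Foxo1 fell (Angpt1 -0.38 ± 0.05, Erg -0.40 ± 0.06, Mecom -0.62 ± 0.10 and Foxo1 -0.75 ± 0.14), and Txnip, a brake on thioredoxin and glucose uptake, rose (log2 fold change 0.52, SE 0.06, adjusted p = 0.002). Of the 20 LSK surface genes, 3 fell (Flt3 -0.30 ± 0.03, Cd34 -0.27 ± 0.05, Cd93 -0.24 ± 0.04, with 1 without Tespa1-/- library 1, 1 without Tespa1-/- library 2 and 1 without Tespa1-/- library 3) and 2 rose (Itga2b 0.81 ± 0.09, Cxcr4 0.37 ± 0.06). Kit did not pass (log2 fold change -0.18, SE 0.05, adjusted p = 0.078). Of 33 genes of lymphoid-primed progenitors, 8 fell. Flt3, the receptor of lymphoid-primed multipotent progenitors, was at 600.4, 619 and 612 CPM across Tespa1+/+ libraries against 497, 493 and 492 CPM across Tespa1-/- libraries (log2 fold change -0.30, SE 0.03, adjusted p = 0.0018), a small but tight difference. Cd79a, a subunit of the B cell receptor, was at 9.68, 9.92 and 10.1 CPM across Tespa1+/+ libraries against 4.26, 4.35 and 3.94 CPM across Tespa1-/- libraries (log2 fold change -1.24, SE 0.17, adjusted p = 0.0047). The B-lineage factor genes Ebf1 and Pax5 fell (Ebf1 -0.71 ± 0.13 and Pax5 -1.16 ± 0.24), as did Mn1, Notch1, Lsp1 and Dntt (Mn1 -0.63 ± 0.07, Notch1 -0.36 ± 0.05, Lsp1 -0.35 ± 0.07 and Dntt -0.16 ± 0.03), and Tcf7, a T-lineage factor gene, rose (log2 fold change 1.40, SE 0.24, adjusted p = 0.014). Of 15 genes of mature B and plasma cells that passed the filter, out of 20, 7 fell (Igkc -1.18 ± 0.11, Ighm -0.38 ± 0.05; 3 without Tespa1+/+ library 2, 3 without Tespa1-/- library 1, 3 without Tespa1-/- library 2 and 4 without Tespa1-/- library 3), while their marker Ighd did not pass (-0.83 ± 0.36) and Ms4a1 had at most 15 counts. By left-out library, 4 lymphoid-primed genes were lower without Tespa1+/+ library 2, 5 without Tespa1-/- library 1, 4 without Tespa1-/- library 2 and 5 without Tespa1-/- library 3. Erg and Mecom lost their calls without Tespa1-/- library 1 or 2 (adjusted p up to 0.058). Foxo1 lost its call without Tespa1+/+ library 3 or any Tespa1-/- library (adjusted p up to 0.094). Cd34 and Tcf7 lost their calls without any Tespa1-/- library (adjusted p up to 0.08). Cd93, Ebf1 and Dntt lost their calls without Tespa1+/+ library 2 or any Tespa1-/- library (adjusted p up to 0.14). Cxcr4 lost its call without Tespa1-/- library 2 or 3 (adjusted p up to 0.067). Pax5 lost its call without Tespa1+/+ library 2 or 3 or Tespa1-/- library 1 or 2 (adjusted p up to 0.12). Lsp1 lost its call without any Tespa1+/+ library or Tespa1-/- library 2 or 3 (adjusted p up to 0.13).

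Some genes of myeloid progenitors and red cells were higher. Of 25 genes of primary granules and myeloid progenitors, 9 rose and none fell, against 1.64% of all genes (median log2 fold change 0.38). Mpo, the myeloperoxidase gene, was at 2235, 2328 and 2322 CPM across Tespa1+/+ libraries against 3043, 3129 and 3202 CPM across Tespa1-/- libraries (log2 fold change 0.45, SE 0.03, adjusted p = 6.9e-05). Elane, neutrophil elastase, was at 71.7, 72.8 and 67.9 CPM across Tespa1+/+ libraries against 127, 113 and 118 CPM across Tespa1-/- libraries (log2 fold change 0.75, SE 0.07, adjusted p = 0.00061), and Ctsg, cathepsin G, at 112, 106 and 102 CPM across Tespa1+/+ libraries against 163, 163 and 167 CPM across Tespa1-/- libraries (log2 fold change 0.62, SE 0.06, adjusted p = 0.00066). In all 3 the groups did not overlap. Alas1, Ms4a3, Plac8, Csf1r, Ly6c2 and Cebpa rose as well (Alas1 0.59 ± 0.08, Ms4a3 0.91 ± 0.16, Plac8 0.25 ± 0.05, Csf1r 0.48 ± 0.09, Ly6c2 0.55 ± 0.11 and Cebpa 0.38 ± 0.09), and Prtn3 did not pass (0.38 ± 0.12). The count was 4 without Tespa1-/- library 1, 4 without Tespa1-/- library 2 and 5 without Tespa1-/- library 3. Of the 23 erythroid genes that passed the filter, 5 rose and none fell. Aqp1, the water channel of red cells, was at 10.7, 8.36 and 10.3 CPM across Tespa1+/+ libraries against 19.7, 27.2 and 29.9 CPM across Tespa1-/- libraries (log2 fold change 1.39, SE 0.19, adjusted p = 0.0045). Ank1, Sptb, Car1 and Ermap were the others (Ank1 1.29 ± 0.20, Sptb 1.45 ± 0.34, Car1 0.98 ± 0.19 and Ermap 2.26 ± 0.53). The factor genes Klf1 (1.16 ± 0.29) and Gata1 (0.81 ± 0.25) did not pass, and the erythroid count was 3 without Tespa1+/+ library 1, 2 without Tespa1-/- library 1, 1 without Tespa1-/- library 2 and 2 without Tespa1-/- library 3. Ms4a3 lost its call without any Tespa1-/- library (adjusted p up to 0.08). Plac8 lost its call without Tespa1+/+ library 2 or 3 or Tespa1-/- library 1 or 2 (adjusted p up to 0.11). Csf1r and Cebpa lost their calls without Tespa1+/+ library 2 or 3 or any Tespa1-/- library (adjusted p up to 0.17). Ly6c2 and Car1 lost their calls without Tespa1+/+ library 1 or 2 or any Tespa1-/- library (adjusted p up to 0.13). Ank1 lost its call without Tespa1-/- library 2 or 3 (adjusted p up to 0.056). Sptb lost its call without any Tespa1+/+ library or Tespa1-/- library 1 or 2 (adjusted p up to 0.17).

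Defining markers of mature cells ranged from no count in any library (Ly6g) to 18.9 to 31.8 CPM in Tespa1+/+ and 30.2 to 31 CPM in Tespa1-/- libraries (Itgam). Summed over the 22 genes of later neutrophils, the level was 74.2 to 91.6 CPM in Tespa1+/+ and 65.3 to 67.8 CPM in Tespa1-/- libraries; S100a8, S100a9, Ltf and Camp reached at most 1.73 CPM in any library and Ly6g had no count. Padi4 was the only called gene of this group and fell (log2 fold change -1.08, SE 0.14, adjusted p = 0.0039). The other 21 genes summed to 39 to 41.7 CPM in Tespa1+/+ and 45.4 to 47.2 CPM in Tespa1-/- libraries, so the lower total came from Padi4. Of the 9 later neutrophil genes tested, 7 had a positive log2 fold change and 4 were higher without overlap of the groups, none of them called (median 0.83). The 26 erythroid genes summed to 368 to 389.8 CPM in Tespa1+/+ and 454 to 476 CPM in Tespa1-/- libraries, with Hba-a1 at up to 2.99 CPM in Tespa1+/+ and 7.33 CPM in Tespa1-/- and Alas2 at up to 0.816 CPM. The 22 genes of monocytes and macrophages summed to 427 to 454 CPM in Tespa1+/+ and 557 to 588 CPM in Tespa1-/- libraries, with F13a1, a transglutaminase gene (log2 fold change 0.99, SE 0.09, adjusted p = 0.00061), and Csf1r higher, Cd14 lower (log2 fold change -1.61, SE 0.21, adjusted p = 0.0041) and C1qa and Cd5l at up to 0.357 and 0.623 CPM. Adgre1, the macrophage antigen F4/80, was at 0 to 0.857 CPM in Tespa1+/+ and 1.07 to 2.36 CPM in Tespa1-/- libraries, without overlap of the groups but not called (log2 fold change 1.97, adjusted p = 0.303). The 25 genes of megakaryocytes and platelets summed to 814 to 832 CPM in Tespa1+/+ and 785 to 804 CPM in Tespa1-/- libraries; Itga2b and Zfpm1 were higher (Itga2b 0.81 ± 0.09 and Zfpm1 0.41 ± 0.08), Thbs1 and Plek were lower (Thbs1 -2.43 ± 0.30 and Plek -0.49 ± 0.06), and Ppbp had at most 2 counts. Against the direction of this sum, the platelet genes Pf4 and Gp1bb were higher in Tespa1-/- libraries without overlap of the groups, though not called. Pf4 was at 2.68 to 3.65 CPM in Tespa1+/+ and 4.75 to 6.13 CPM in Tespa1-/- libraries (log2 fold change 0.78, adjusted p = 0.111). Gp1bb was at 0.0357 to 0.400 CPM in Tespa1+/+ and 0.800 to 1.05 CPM in Tespa1-/- libraries (log2 fold change 1.80, adjusted p = 0.276). For the remaining groups, basophils and mast cells summed to 250.3 to 288 CPM in Tespa1+/+ and 244 to 277 CPM in Tespa1-/- libraries, mature B and plasma cells to 539.8 to 569.9 CPM in Tespa1+/+ and 411 to 446 CPM in Tespa1-/- libraries, T and NK cells to 109.6 to 116 CPM in Tespa1+/+ and 100.4 to 105 CPM in Tespa1-/- libraries, dendritic cells to 1025 to 1086 CPM in Tespa1+/+ and 908 to 930.5 CPM in Tespa1-/- libraries, stromal and endothelial cells to 194 to 198 CPM in Tespa1+/+ and 199.9 to 215 CPM in Tespa1-/- libraries and eosinophil granules to 3.68 to 7.47 CPM in Tespa1+/+ and 8.53 to 10.1 CPM in Tespa1-/- libraries. Some of these sums rest on 1 gene, the member whose level differed most, as seen after the values were known. Without Flt3, a receptor of progenitors as well as of dendritic cells, the dendritic sum was 425 to 467 CPM in Tespa1+/+ and 415 to 437 CPM in Tespa1-/- libraries, and without Cd28 the T and NK cell sum was 84.2 to 94.3 CPM in Tespa1+/+ and 88.8 to 93.5 CPM in Tespa1-/- libraries, so that the groups overlapped in both. Without F13a1 the monocyte and macrophage sum was 326 to 354 CPM in Tespa1+/+ and 351 to 378 CPM in Tespa1-/- libraries, also with overlap. Without Siglecf the eosinophil granule sum was 0.571 to 3.11 CPM in Tespa1+/+ and 2.27 to 4.15 CPM in Tespa1-/- libraries. Without Pecam1 the stromal and endothelial sum was 93.7 to 100.8 CPM in Tespa1+/+ and 99.97 to 107.6 CPM in Tespa1-/- libraries. The groups overlapped in these sums as well. Without Plek the megakaryocyte and platelet sum was 616 to 636 CPM in Tespa1+/+ and 649 to 665 CPM in Tespa1-/- libraries, higher in place of lower, and without the chemokine gene Ccl3 the basophil and mast cell sum was 156 to 175 CPM in Tespa1+/+ and 169 to 199 CPM in Tespa1-/- libraries. Of the 12 tested basophil and mast cell genes, 5 were higher and 3 lower without overlap (median log2 fold change 0.47), and Cpa3, a mast cell protease gene, was at 6.36 to 9.65 CPM in Tespa1+/+ and 11.3 to 13.5 CPM in Tespa1-/- libraries, not called (adjusted p = 0.160). Of the defining markers, Mcpt8 was above 1 CPM in all 6 libraries, whereas Cd3d, Trac and Col1a1 did not exceed 1.06 CPM. The part of such cells in the results was not tested beyond these values. Zfpm1 lost its call without Tespa1+/+ library 2 or 3 or any Tespa1-/- library (adjusted p up to 0.11).

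Of 43 S-phase genes none was called by edgeR (median log2 fold change 0.01), with 6 at an unadjusted p below 0.05 and 0 by DESeq2, and of 54 G2/M genes 2 rose, Nuf2 (log2 fold change 0.64, SE 0.08, adjusted p = 0.0031) and Kif20b (log2 fold change 0.33, SE 0.06, adjusted p = 0.024), with a median of 0.02. Among the 18 cyclin and CDK genes Ccnd2 fell (log2 fold change -0.20, SE 0.04, adjusted p = 0.028), and Cdkn1a, which encodes the CDK inhibitor p21, was at 144, 145 and 163 CPM across Tespa1+/+ libraries against 61.1, 58.1 and 59.2 CPM across Tespa1-/- libraries (log2 fold change -1.34, SE 0.07, adjusted p = 3.3e-05). Replication-dependent histone genes, a list added after their values were seen, were higher in 40 of 66 and lower in none (median 0.40). Hist1h2ao, an H2A gene, was at 1420.2, 1308 and 1364 CPM across Tespa1+/+ libraries against 1849, 1892 and 1772 CPM across Tespa1-/- libraries (log2 fold change 0.43, SE 0.04, adjusted p = 0.00048), and Hist1h1d, a linker histone gene, at 348, 311 and 289 CPM across Tespa1+/+ libraries against 531, 529.9 and 535 CPM across Tespa1-/- libraries (log2 fold change 0.75, SE 0.07, adjusted p = 0.00048). The count was 26 without Tespa1+/+ library 2, 20 without Tespa1-/- library 1, 17 without Tespa1-/- library 2 and 15 without Tespa1-/- library 3. Histone genes are near copies of each other, and most of their mRNAs lack a poly(A) tail. Some structural RNAs without such a tail rose too. Of 27 misc_RNA genes 4 rose, and of 190 snoRNA genes 6 rose, with none lower in either class, against 1.64% of all genes higher. Rn7s1 and Rn7s2, copies of the signal recognition particle RNA, were both higher. Rn7s1 was at 12045, 11490.4 and 12524 CPM across Tespa1+/+ libraries against 18129, 17662 and 18890.1 CPM across Tespa1-/- libraries (log2 fold change 0.60, SE 0.03, adjusted p = 3.6e-05), and Rn7s2 had a log2 fold change of 0.59 ± 0.03. Their exons and those of Rpph1 overlap other genes or copies on the same strand, so their counts are uncertain. Rpph1, the RNA of ribonuclease P, was at 4418, 3769 and 4715 CPM across Tespa1+/+ libraries against 8947, 7849 and 7541 CPM across Tespa1-/- libraries (log2 fold change 0.92, SE 0.08, adjusted p = 0.00066), and Rn7sk and Rmrp rose by 0.41 and 0.59 on the log2 scale. Of 61 spliceosomal snRNA genes 12 rose and none fell (median 0.41). Whether the rises of histone and structural RNAs have a common cause was not tested. After 5-FU histone genes were higher too (40 of 66, median 0.40), where the snRNA median was -0.21. Kif20b and Ccnd2 lost their calls without Tespa1+/+ library 2 or 3 or any Tespa1-/- library (adjusted p up to 0.13).

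**Figure D4:**
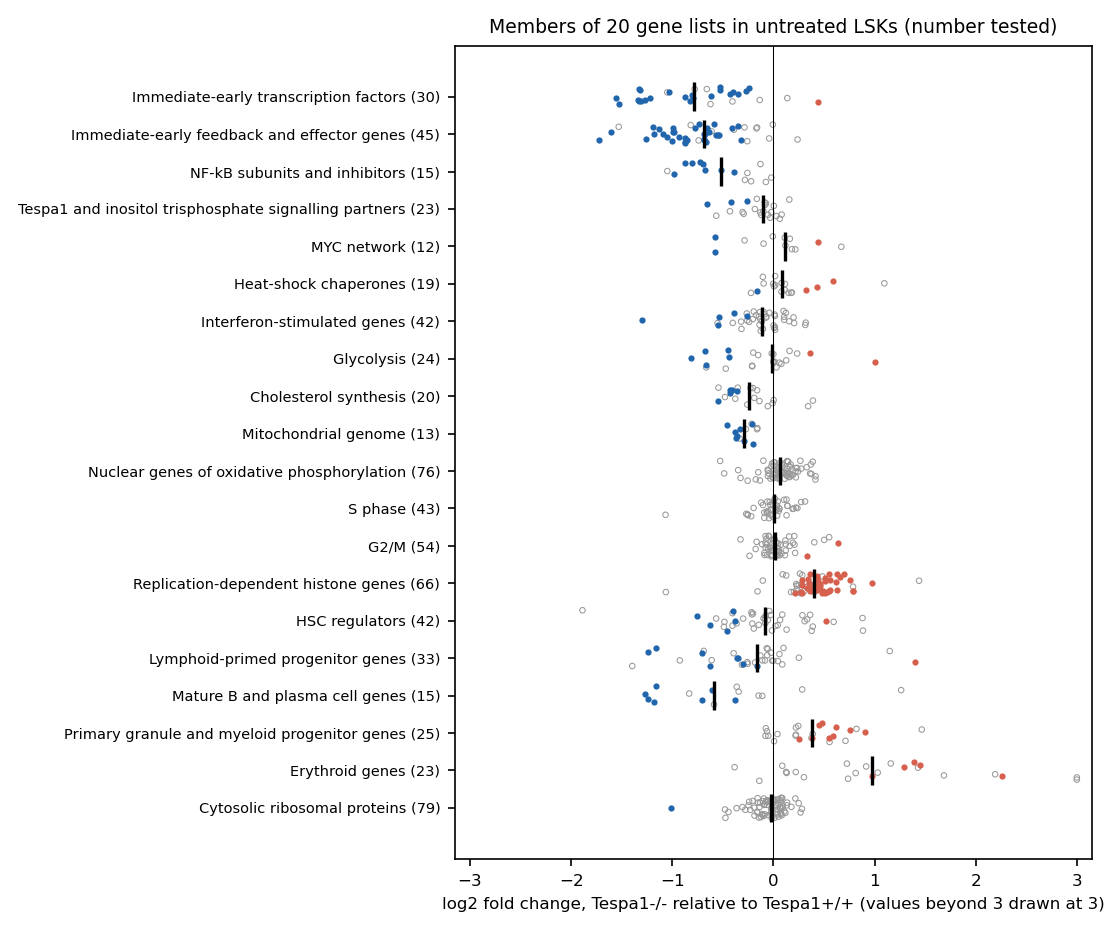
Log2 fold change of every tested member of 20 gene lists in untreated LSKs. Each point is a gene, blue if called lower, red if called higher at an adjusted p below 0.05 and open if not called; the black bar is the median of the list, the number tested is in parentheses, and values beyond 3 are drawn at 3. Both immediate-early lists lie left of 0 (medians -0.79 and -0.69), the histone and primary granule lists right of it (0.40 and 0.38), and the S-phase list around it.

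Of the 13 mRNAs of the mitochondrial genome, 8 fell and all had a negative log2 fold change (median -0.30). mt-Nd5, a subunit of complex I, was at 1348, 1429 and 1426 CPM across Tespa1+/+ libraries against 1064, 1083 and 1090.5 CPM across Tespa1-/- libraries (log2 fold change -0.38, SE 0.03, adjusted p = 0.00043). None of 76 nuclear genes of oxidative phosphorylation was called by edgeR (median 0.07), with 11 at an unadjusted p below 0.05 and 3 by DESeq2. The mitochondrial count was 4 without Tespa1+/+ library 2, 3 without Tespa1-/- library 1, 3 without Tespa1-/- library 2 and 4 without Tespa1-/- library 3. Of 24 genes of glycolysis, 5 fell (3 without Tespa1-/- library 1, 3 without Tespa1-/- library 2 and 3 without Tespa1-/- library 3) and 2 rose. Hk2, a hexokinase gene, was at 172, 165 and 184 CPM across Tespa1+/+ libraries against 105, 95.1 and 95.3 CPM across Tespa1-/- libraries (log2 fold change -0.82, SE 0.07, adjusted p = 0.00038), and the glucose transporters Slc2a1 and Slc2a3 fell (Slc2a1 -0.67 ± 0.08 and Slc2a3 -0.68 ± 0.08), as did Gapdh and Eno1 (Gapdh -0.44 ± 0.07 and Eno1 -0.45 ± 0.11). Eno1b, a copy of the enolase gene, rose (log2 fold change 1.01, SE 0.09, adjusted p = 0.00051) while Eno1 fell, and reads could be split between the copies; Hk3 rose (0.36 ± 0.08). Of 20 genes of cholesterol synthesis and uptake, 5 fell. Among them Srebf2, the factor that drives this pathway, was at 235, 226 and 231 CPM across Tespa1+/+ libraries against 174, 174 and 190.2 CPM across Tespa1-/- libraries (log2 fold change -0.36, SE 0.05, adjusted p = 0.0078), and Cyp51 and Insig1 had log2 fold changes of -0.55 ± 0.11 and -0.41 ± 0.09. The cholesterol count was 2 without Tespa1+/+ library 1, 2 without Tespa1+/+ library 2, 3 without Tespa1+/+ library 3, 0 without Tespa1-/- library 1, 0 without Tespa1-/- library 2 and 1 without Tespa1-/- library 3. Of 79 cytosolic ribosomal protein genes only Rpl15 was called, lower (log2 fold change -1.01, SE 0.22, adjusted p = 0.036). mt-Nd1 and Srebf2 lost their calls without Tespa1-/- library 1 or 2 (adjusted p up to 0.062). Cyp51 lost its call without Tespa1+/+ library 1 or 2 or any Tespa1-/- library (adjusted p up to 0.12). Insig1 lost its call without any 1 of the 6 libraries (adjusted p up to 0.18). Gapdh lost its call without any Tespa1-/- library (adjusted p up to 0.073). Eno1 lost its call without Tespa1+/+ library 2 or 3 or any Tespa1-/- library (adjusted p up to 0.19). Hk3 lost its call without any Tespa1+/+ library or Tespa1-/- library 1 or 3 (adjusted p up to 0.17). Rpl15 lost its call without Tespa1+/+ library 1 or 3 or any Tespa1-/- library (adjusted p up to 0.16).

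Stress genes held calls in either direction, given here beside 1.64% of all genes called higher and 3.59% called lower. Of 19 heat-shock chaperone genes, Hsph1 (log2 fold change 0.59, SE 0.08, adjusted p = 0.0039), Hspa1b (log2 fold change 0.43, SE 0.06, adjusted p = 0.0065) and Chordc1 (log2 fold change 0.33, SE 0.07, adjusted p = 0.041) rose (15.8%) and Hspa4 fell (log2 fold change -0.16, SE 0.04, adjusted p = 0.043), 5.26% of the list, with a median of 0.08. In the 24 genes of the unfolded protein and integrated stress responses, Atf4, the central factor of the latter, was at 334, 316 and 329.6 CPM across Tespa1+/+ libraries against 234, 239 and 244 CPM across Tespa1-/- libraries (log2 fold change -0.45, SE 0.05, adjusted p = 0.001), its target Ddit3 (CHOP) fell (log2 fold change -0.74, SE 0.11, adjusted p = 0.0061), as did Dnajb9 (-0.50 ± 0.11), 12.5% of the list in all, and the median was 0.07. Of 42 interferon-stimulated genes 5 fell (11.9%) and none rose, with a median of -0.11, and the count was 3 without Tespa1-/- library 1 and 3 without Tespa1-/- library 2. Rnf213, a large ubiquitin ligase gene, was at 1721, 1645 and 1675 CPM across Tespa1+/+ libraries against 1132, 1174 and 1151 CPM across Tespa1-/- libraries (log2 fold change -0.54, SE 0.03, adjusted p = 3.3e-05), Rsad2, the antiviral enzyme viperin, at 36.9, 29.7 and 30.9 CPM across Tespa1+/+ libraries against 13.3, 14.5 and 11.8 CPM across Tespa1-/- libraries (log2 fold change -1.30, SE 0.14, adjusted p = 0.0013), and Dtx3l and Ddx58 also fell (Dtx3l -0.53 ± 0.05 and Ddx58 -0.39 ± 0.06). Chordc1 and Hspa4 lost their calls without any 1 of the 6 libraries (adjusted p up to 0.19). Dnajb9 lost its call without Tespa1+/+ library 1 or 2 or any Tespa1-/- library (adjusted p up to 0.16). Ddx58 lost its call without Tespa1-/- library 1 or 2 (adjusted p up to 0.062).

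Whether the genotype difference had another size after 5-FU was tested by the interaction of genotype and treatment over the 12 libraries, which called 5.01% of 18696 genes (3.02% more positive and 1.99% more negative after 5-FU). Among the 75 immediate-early genes the interaction was called for 33, 32 of them with a more positive value after 5-FU. The test reuses the 6 untreated libraries in which these genes and the genes named here were found to differ, so the number of interactions among them is a description and is not read against the share of all genes. The median of these genes was -0.74 in untreated LSKs and -0.31 after 5-FU, where 33 were lower and 3 higher, against 5.78% and 7.34% of all genes. Nr4a1 was at 349.8, 341 and 335 CPM in Tespa1+/+ and 193, 223 and 219 CPM in Tespa1-/- libraries after 5-FU, a log2 fold change of -0.70 against -1.31 without it (interaction adjusted p = 0.00065). Plk2 fell by 0.96 after 5-FU and by 1.73 without it (interaction adjusted p = 0.00071). For Bhlhe40 and Cebpb, the log2 fold changes after 5-FU were -0.13 and 0.14, neither of which passed the test there (interaction adjusted p = 2.7e-05 and 4.4e-06). Egr1, by contrast, fell by 0.80 in untreated and 0.77 in 5-FU LSKs (interaction adjusted p = 0.92). Chosen after its values were seen, Kdm6b was at 519, 536 and 556 CPM in untreated Tespa1-/- and 582, 545 and 542 CPM in 5-FU-treated Tespa1+/+ libraries, so these groups overlapped.

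Other groups differed from this. Thbs1 fell in untreated LSKs but rose after 5-FU (-2.43 and 1.14, interaction adjusted p = 8.5e-05), and so did the lamin gene Lmna (-1.45 and 0.80) and Ahnak, which encodes a giant scaffold protein (-0.61 and 0.68, interaction adjusted p = 6.4e-07 and 2.8e-07). Primary granule genes had medians of 0.38 in untreated LSKs and 0.76 after 5-FU. Elane rose by 0.75 and by 1.71 (interaction adjusted p = 1.2e-05). Interferon-stimulated genes had a median of -0.11 and, after 5-FU, -0.88, with 37 of 42 lower there. Histone genes had medians of 0.40 and 0.40, and the interaction was called for 5 of 66. Rpph1, which rose in untreated LSKs, had a value of -0.11 after 5-FU (interaction adjusted p = 0.0008). Of the 262 genes called lower in untreated LSKs, 249 were tested after 5-FU, where 87 were lower and 11 higher at an adjusted p below 0.05. Of the 166 called higher, 149 were tested, and 50 were higher and 6 lower.

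**Figure D5:**
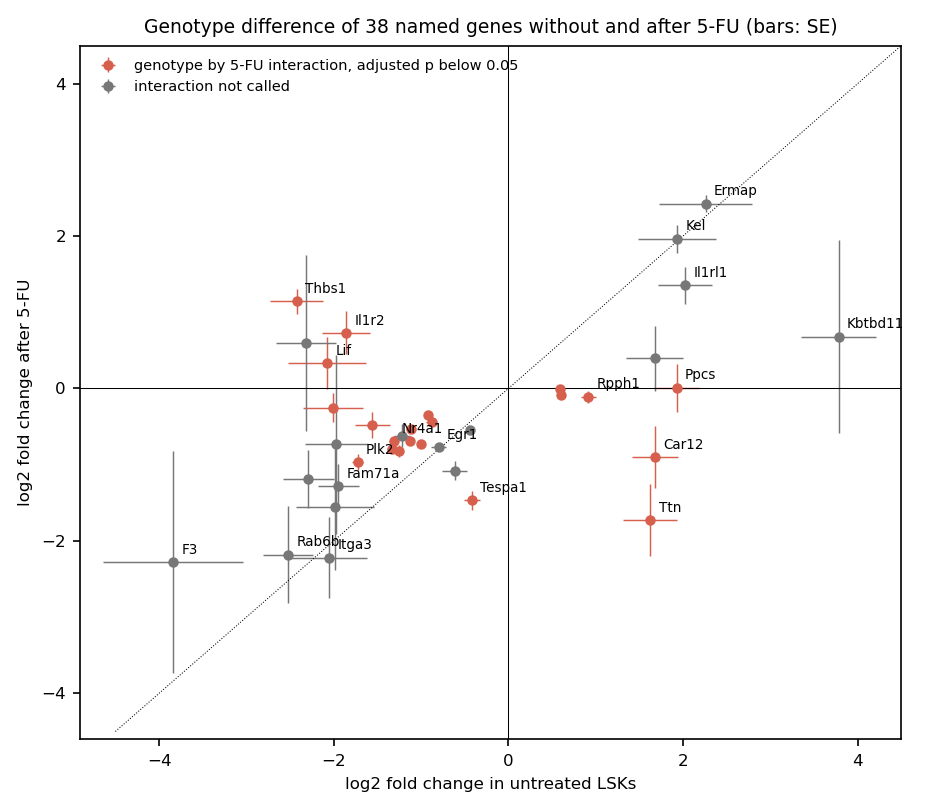
Log2 fold change of Tespa1-/- relative to Tespa1+/+ in untreated LSKs (x axis) and after 5-FU (y axis) for 38 named genes, with standard errors as bars; red points have a called interaction, the dotted line marks equal values, and genes with a fold change above 5 on the log2 scale are left out. Nr4a1, Plk2 and Fosl2 lie between the dotted line and 0 on the y axis, Thbs1 and Il1r2 lie above 0 after 5-FU, and Ermap and Kel lie close to the line.

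Genes close to Tespa1 on chromosome 10 are inherited with the allele and can keep the genotype of the strain in which it was made. Within 20 Mb of Tespa1, 3 of 161 tested genes were called at a fold above 1.5 (1.86%, exact binomial 95% interval 0.386 to 5.35%, counting error only), against 2.54% of the genes on other chromosomes. Without the fold threshold 7 were called (4.35%, against 5.29% on other chromosomes), all lower: Lrp1, R3hdm2, Ddit3, Lemd3, Hmga2, Rap1b and Phlda1, with log2 fold changes from -1.08 (Phlda1) to -0.26 (Rap1b). Hmga2, a chromatin protein gene of fetal stem cells, was at 48 CPM on average in Tespa1+/+ against 26.9 CPM in Tespa1-/- LSKs (log2 fold change -0.83, SE 0.11, adjusted p = 0.0049). Only 1 gene besides Tespa1 was tested within 1 Mb, and it was not called.

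Exons of other genes named above also overlap an annotated gene on the opposite strand, so that their counts too are uncertain where strand was not used. These are Kbtbd11, Ttn, Thbs1, Serinc3, Cd34, Txnip, Angpt1, Cops2, Ddit3, Dnajb9, Rnf213, Dtx3l, Cdkn1a, Ccnd2, Gnl2, Rpl15, mt-Nd5, Slc2a1, Cyp51, Notch1, Csf1r, Icam1, Mpo, Alas1, F13a1, Ank1, Sptb, Plek, Hist1h2ao, Mecom, Foxo1, Itpr3, Itpr1, Nfkb2, Gapdh, Hk3, Pax5, Cebpa, Prtn3 and Rmrp. Exons of Slc45a3, Ncl, mt-Nd1, Ddit3, Itpr3, Itgam and Rmrp overlap another annotated gene or a second entry of their own on the same strand.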

How the data were processed

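LSKs were sorted from bone marrow, and poly-A RNA was sequenced in paired ends with a kit that keeps strand. The authors deposited, per gene and library, raw read counts and FPKM. The submitters' processing notes name CASAVA 1.8, HISAT2, StringTie and edgeR and the build GRCm38; which tool counted the reads, and whether by strand, is not given in the sources used here. The FPKM follow from the deposited counts and gene lengths and were not used for tests. Columns were matched to libraries by name.

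The 6 untreated libraries were compared by their counts with edgeR 4.0.16 in R 4.3.3 (TMM factors, a minimum count of 10 in filterByExpr, glmQLFit and glmQLFTest), with genotype as the only term and Benjamini-Hochberg adjustment over all genes tested. The interaction of genotype and 5-FU used the 12 libraries. Log2 fold changes are fitted values given with their standard errors, written as value ± SE, and CPM use TMM factors over the 12 libraries. The biological coefficient of variation was 0.229. Libraries of one group differed by more than sampling noise, so none was a copy of another. The median chi-square per gene was 2.10 to 2.48 between untreated Tespa1-/- libraries and 4.28 to 6.12 within the other groups. Folds against a group without a count are lower bounds, reckoned from 3 counts per library.

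The gene groups, the tests and the genes to be named were chosen with earlier results of these data known. A group's members were counted at an adjusted p below 0.05. Named were Tespa1, the 6 c-Myc target genes of the study, and the extremes among called genes that averaged at least 1 CPM and whose groups did not overlap, namely the 12 largest rises and falls and the 8 smallest p. Also named were the 3 genes of highest level called in each direction with a fold above 1.5 and the 4 smallest p of each list. Provisional symbols, pseudogenes and receptor segments were left out. The histone list was added after its values were seen, and other members are named with their list. Some members are counted in their list but not reported by name here.

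On counts simulated from these libraries with 200 genes changed, the test recovered 83% of 2-fold and 100.0% of 4-fold changes, while unchanged genes made up 4.69% of its calls and 10.7% of those of DESeq2. The changed genes were drawn from well-counted genes only, and each simulated gene had the spread fitted for its expression level. Recovery therefore holds for such genes, and all these shares may be less favourable in the real data. Alternatives were DESeq2 1.42.0, RLE factors, library totals, other filters, a joint fit of 12 libraries, a block for replicate numbers, leaving out each library in turn, other thresholds and, added later, a correction for GC content and length and protein-coding genes alone. Sequences are from RefSeq. Tables and plots were made in Python 3.11 (SciPy 1.17.1, NumPy 2.4.6, pandas 2.3.3, matplotlib 3.10.9).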

Additional observations from a re-analysis of the deposited data

Results flagged for a closer look

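Of the 42 genes named by rank, level or role, 24 had a genotype difference that was of another size after 5-FU than without it (edgeR's test of the interaction over 12 libraries, adjusted p below 0.05). Most of these genes were named for the size or the p of their difference in the untreated libraries, which the interaction uses again, so the choice of genes can raise this number, which is a description only. The values are the log2 fold change after 5-FU minus that in untreated LSKs, so a positive value of a gene that fell means a smaller fall, or a rise, after 5-FU. Of the immediate-early genes among the 42, those with a called interaction fell less after 5-FU, with 0.62 for Nr4a1, 1.08 for Nr4a3, 0.55 for Fosl2, 0.44 for Sik1, 0.28 for Kdm6b, 0.77 for Plk2, 0.44 for Dusp5 and 0.44 for Zfp36, whereas the interaction was not called for Egr1 (0.03, adjusted p = 0.92) and Nr4a2 (0.60, adjusted p = 0.078). The values 0.58 for Serinc3 and 0.59 for Marcksl1 were the values of the other 2 genes chosen for a small p. Of the 12 largest falls, 4 had a called interaction, with 3.57 for Thbs1, 2.41 for Lif, 2.59 for Il1r2 and 1.76 for Ehd3, and of these Thbs1 was higher in Tespa1-/- LSKs after 5-FU. The value of Tespa1 itself, which fell more after 5-FU, was -1.05.

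Among the 12 largest rises, 6 had a called interaction, and these were raised less, not raised, or lower after 5-FU, with -11.38 for Zfp708, -8.32 for Zfp990, -6.42 for Gpx3, -1.91 for Ppcs, -2.58 for Car12 and -3.35 for Ttn. The values of Zfp708 and Zfp990 depend on untreated Tespa1+/+ libraries with few counts or none and are no measure of size. Gpx3 varied widely within a group: it was at 14.4, 24.5 and 0.414 CPM in Tespa1+/+ after 5-FU. Structural RNAs followed, with -0.68 for Rn7s1, -0.60 for Rn7s2 and -1.02 for Rpph1.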

How the results depend on the processing

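The count of higher genes (166) became 278 with DESeq2, 603 at the study's thresholds, 280 without a fold threshold and 90 with a fold above 2. The count of lower genes (262) became 546, 612 and 123 under the last 3 of these, and 344 with DESeq2, which is within 1.5 times. On the simulated counts, where each gene had the spread of its expression level, DESeq2 made more calls of unchanged genes. Which of its added calls are of that kind in the real data was not tested. With 1 library left out, 51 to 185 genes were higher and 155 to 244 lower. Size factors, library totals, filters on low counts, 12 libraries in one fit, the GC and length correction and protein-coding genes alone kept both counts within 1.5 times, although with no filter the median of all genes rose to 0.22 (log2). Calls higher made up 38.8% of the calls, 40.3% without TMM and 39.2% with RLE factors. This share was 28.9% with the replicate block and 23.4% to 45.0% with 1 library left out. The log2 fold change of Tespa1 was -0.40 with the GC and length correction (adjusted p = 0.0503) and -0.47 to -0.36 with 1 library left out, and the call was lost in these fits except without Tespa1+/+ library 2.

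With 1 library left out, 19 to 22 immediate-early transcription factors and 28 to 32 feedback and effector genes were lower, and 4 to 8 primary granule genes and 15 to 40 histone genes were higher. The interaction was called for 20 to 23 of the named genes. Within 20 Mb of Tespa1 the share called went from 1.86% to 4.35% without the fold threshold, and that on other chromosomes from 2.54% to 5.29%. Over the other named genes, 530 values in alternative fits kept direction and call, 77 kept the direction and lost the call, and none changed sign. Over the other gene lists with 3 or more calls, 60 of 300 counts moved by more than 1.5 times.

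Replicate numbers are shared between the groups, but same-numbered libraries did not deviate together (correlations of their deviations over genes -0.066, -0.009 and -0.026). With 3 libraries a side this cannot decide whether a number marks a shared litter or day. With the replicate block, 74 genes were higher and 182 lower, 4 primary granule genes and 23 histone genes were higher, 21 and 31 genes of the immediate-early sets were lower, and Tespa1 had a log2 fold change of -0.41 (adjusted p = 0.091). The cause of the changed counts was not tested, but the block and each left-out library also lower the degrees of freedom. Depth limits genes near 3 counts per library, where a fold change is at most a bound.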

Other observations

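Further groups moved in part. Of 23 p53 target genes tested, 4 were lower (Plk2, Cdkn1a, Btg2 and Plk3, of which all but Cdkn1a are also immediate-early genes) and Tigar, a regulator of glycolysis, was higher (log2 fold change 1.17, SE 0.22, adjusted p = 0.02). Of 20 genes for AHNAK, lamins, annexins, S100 proteins and related cytoskeletal proteins, 3 fell. Lmna, the gene of lamins A and C, was at 51.6, 61.4 and 53.2 CPM across Tespa1+/+ libraries against 20.4, 21.2 and 19.2 CPM across Tespa1-/- libraries (log2 fold change -1.45, SE 0.10, adjusted p = 0.00017). Ahnak and Vim had log2 fold changes of -0.61 ± 0.05 and -0.23 ± 0.05. Of 25 adhesion and homing genes, Icam1, S1pr1 and Cd44 fell and Cxcr4, the receptor that holds stem cells in the marrow, rose (log2 fold change 0.37, SE 0.06, adjusted p = 0.01); S1pr1, the receptor that guides egress, was at 15.4, 16.5 and 19.9 CPM across Tespa1+/+ libraries against 7.74, 7.78 and 4.68 CPM across Tespa1-/- libraries (log2 fold change -1.36, SE 0.22, adjusted p = 0.012). Tigar lost its call without Tespa1+/+ library 2 or any Tespa1-/- library (adjusted p up to 0.1). Vim lost its call without Tespa1+/+ library 3 or any Tespa1-/- library (adjusted p up to 0.15). Cxcr4 lost its call without Tespa1-/- library 2 or 3 (adjusted p up to 0.067). Cd44 lost its call without Tespa1+/+ library 2 or 3 or Tespa1-/- library 2 or 3 (adjusted p up to 0.16).

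Of 15 dendritic cell genes tested, 2 were called, both lower: Flt3, given above, and Cd86. Cd86 was at 21, 20.8 and 20.5 CPM across Tespa1+/+ libraries against 9.23, 8.53 and 10.9 CPM across Tespa1-/- libraries (log2 fold change -1.12, SE 0.14, adjusted p = 0.0034). Cd28 was the only called gene of 14 T and NK cell genes tested (log2 fold change -0.92, SE 0.16, adjusted p = 0.013). H2-Ob was the only called gene of 10 of MHC class II presentation (log2 fold change -0.67, SE 0.10, adjusted p = 0.0091). Of 29 chromatin regulators of clonal haematopoiesis, Crebbp and Setd2 fell and Nsd1 rose, all by little (Crebbp -0.31 ± 0.04, Setd2 -0.23 ± 0.05 and Nsd1 0.15 ± 0.03). Of 25 receptor genes, Flt3, Notch1 and Tgfbr2 fell (-0.42 ± 0.07 for the last) and Csf1r rose. Fth1, ferritin heavy chain, was the only called gene of 21 antioxidant and iron genes (log2 fold change -0.37, SE 0.06, adjusted p = 0.011), and Igf2r of 12 imprinted genes (log2 fold change -0.45, SE 0.09, adjusted p = 0.031). Ccl3 fell (log2 fold change -0.41, SE 0.08, adjusted p = 0.022), and Epx, an eosinophil peroxidase gene without a Tespa1+/+ count, was at 0.528, 0.578 and 0.700 CPM in Tespa1-/- libraries, at least 4.79-fold higher. Malat1, a nuclear noncoding RNA, fell by 0.11 on the log2 scale while Kcnq1ot1 rose by 0.34. By chromosome, 35 of the 45 genes higher on chromosome 13 were histone genes. Cd28 and Fth1 lost their calls without Tespa1-/- library 1 or 2 (adjusted p up to 0.073). H2-Ob lost its call without Tespa1-/- library 2 or 3 (adjusted p up to 0.058). Setd2 lost its call without Tespa1+/+ library 2 or 3 or Tespa1-/- library 2 or 3 (adjusted p up to 0.12). Nsd1, Igf2r and Epx lost their calls without any 1 of the 6 libraries (adjusted p up to 0.17). Tgfbr2 lost its call without Tespa1+/+ library 1 or 2 or any Tespa1-/- library (adjusted p up to 0.09). Ccl3 lost its call without any Tespa1-/- library (adjusted p up to 0.1).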
